A study of Mus musculus with 2 samples.

Results

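The Ly6 genes encode small lymphocyte antigens of the cell surface, and 7 of them, Ly6a, Ly6c1, Ly6c2, Ly6d, Ly6e, Ly6i and Ly6k, were followed among the 23309 rows of the deposited gene table by an exact match of the gene symbol. All 7 matched 1 row each. RNA sequencing compared 2 groups of cultured mouse bone marrow progenitors, one treated with 5 nM 4-hydroxytamoxifen (4OHT) for 72 h and the other with ethanol, its vehicle, for the same time. Cells of both groups were Cebpaf/f;CreER, that is, they carried loxP-flanked Cebpa alleles and a Cre recombinase activated by 4OHT, had been depleted of lineage-positive cells, carried the retroviruses MIGR1-HA-Hoxa9 and, as a second transforming gene, MIGR1-Flag-Meis1, and grew with IL3. The labels give neither the promoter that drives CreER nor the age of the mice, and no group without CreER was analysed here, so loss of Cebpa and other effects of 4OHT or of Cre cannot be told apart. Each deposited sample joins 2 replicates, so there was 1 value per condition and no spread between replicates could be given. Values are in FPKM, fragments per kilobase of transcript scaled for library depth, and the depth behind them is unknown.

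Ly6 proteins share a cysteine-rich fold in which disulfide bonds hold finger-like loops together, and most of them are tied to the outer membrane by a glycosylphosphatidylinositol (GPI) anchor. In mouse blood cells they serve as markers of lineage and stage. Ly6a encodes Sca-1, the stem cell antigen, the Ly6c genes encode the Ly-6C antigen used to sort monocytes and their progenitors, and Ly6d marks lymphoid progenitors bound for the B cell lineage. Several members, among them Ly6a, Ly6c and Ly6e, are known to respond to interferons.

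Ly6c1 and Ly6c2 are close copies, and their coding sequences are shown because the likeness bears on how far the 2 rows can be read apart. Both are from GENCODE's transcripts of the GRCm38 build, on the minus strand of chromosome 15, and run over the first 270 bases from the start codon, and capitals mark the bases that differ between them.
Ly6c1: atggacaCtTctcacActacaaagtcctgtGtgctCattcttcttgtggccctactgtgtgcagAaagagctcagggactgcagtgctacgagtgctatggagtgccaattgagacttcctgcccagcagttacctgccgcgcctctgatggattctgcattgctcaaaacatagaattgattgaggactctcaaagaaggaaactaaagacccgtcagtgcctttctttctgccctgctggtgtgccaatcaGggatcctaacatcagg
Ly6c2: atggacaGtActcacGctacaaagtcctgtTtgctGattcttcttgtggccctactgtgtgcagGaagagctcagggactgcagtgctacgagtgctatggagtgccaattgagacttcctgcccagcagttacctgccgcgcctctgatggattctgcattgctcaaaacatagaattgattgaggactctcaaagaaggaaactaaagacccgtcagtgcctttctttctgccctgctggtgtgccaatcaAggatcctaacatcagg
The stretch shown holds 7 differing bases, and 2 more follow it. Over all 396 aligned bases, stop codon included, the pair differed at 9, an identity of 97.7%, and the longest stretch without a difference ran for 188 bases, from base 66 to base 253 of the alignment. The coding sequences of Ly6a and Ly6i were 86.4% identical, with 55 differing bases of 405, while Ly6e was 60.2% identical to Ly6c2 over the aligned bases. Of all 50-base windows of the representative transcript, 36.7% in Ly6c1 and 33.0% in Ly6c2 also stood in a transcript of another gene, against 10.04% in Ly6a, 4.97% in Ly6i and 0% in Ly6e, Ly6d and Ly6k. At 100 bases the shares were 15.3% in Ly6c1, 15.8% in Ly6c2 and 0% in the other 5. At 36 bases they were 51.2% in Ly6c1, 48.4% in Ly6c2, 18.4% in Ly6a, 15.6% in Ly6i and 0.445% in Ly6e. No source used here gives the read length or the handling of reads that match several copies, so the split between Ly6c1 and Ly6c2 is uncertain. Ly6a also shared 36-base windows with both Ly6c genes, and the part that their reads may have in its value was not tested.

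The comparison asked how transcripts of these surface antigens differed between cells given 4OHT and cells given vehicle. Ly6c2 fell, Ly6e rose, 3 further members were tested without passing, and Ly6d and Ly6k were not tested. A gene was called when the authors' deposited table gave it a completed test and a q-value under 0.05, and below only such genes are said to have risen or fallen. Of the 5 members tested, 2 were called, 1 in each direction, where 5.91% of all 11953 tested rows were called, 2.8% higher and 3.11% lower. With members called in opposite directions, the summed level of the 7 rows was 838 FPKM after 4OHT and 903 FPKM in vehicle cells, a ratio of 0.929. In these bulk samples, fewer cells that carry a transcript and less of it per cell cannot be told apart.

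Ly6c2, one of the genes of the Ly-6C antigen, had 323 FPKM after 4OHT and 551 FPKM in vehicle cells. The value after 4OHT was 0.586 times that in vehicle cells, a log2 ratio of -0.77, with q = 0.00165 in the authors' deposited table. That is the smallest q in the authors' deposited table, and 363 tested rows share it. Among all rows ordered by level, Ly6c2 stood at rank 300 after 4OHT and at rank 183 in vehicle cells. It lies on chromosome 15 of the files' build, mm9, at positions 74938591 to 74942379. Of 156 other tested rows whose higher level lay within 1.5-fold of that of Ly6c2, 8 were called. A ratio at least as far from 1 was found in 7 of the 156, of which 1 was lower after 4OHT and 4 were called.

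Ly6e, a widely expressed member also known as thymic shared antigen, had 505 FPKM after 4OHT and 341 FPKM in vehicle cells. It rose 1.48-fold, a log2 ratio of 0.57, with q = 0.0167 by the authors' deposited table. Its rank among all rows was 195 after 4OHT and 295 in vehicle cells. The deposited table holds a further yes or no column for changed genes, and among the 707 rows with q under 0.05 it read yes for ratios of at least 1.501 in either direction and no for ratios up to 1.499. By that column 629 rows, 5.26% of those tested, were changed in the authors' deposited table, Ly6c2 among them and Ly6e not. Ly6e lies on mm9 chromosome 15 at 74785481 to 74790335, and in GRCm38 it is the only one of the 7 members on the plus strand. Of 164 other tested rows at a level within 1.5-fold of that of Ly6e, 10 were called. A ratio at least as far from 1 was found in 17 of the 164, of which 12 were higher after 4OHT and 8 were called.

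Together Ly6c2 and Ly6e made up 98.8% of the summed FPKM of the 7 rows in each condition. The order of these 2 genes differed between the conditions. After 4OHT Ly6e held 60.3% of the family sum and Ly6c2 38.5%, and in vehicle cells Ly6e held 37.8% and Ly6c2 61.0%. On this per-length scale the level of Ly6c2 was 0.639 times that of Ly6e after 4OHT and 1.61 times that of Ly6e in vehicle cells. The lower ranks kept their order, with Ly6a above Ly6c1 and Ly6c1 above Ly6i in both conditions. With 1 value per condition, whether neighbours in that order differ beyond their spread cannot be tested.

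**Figure D1:**
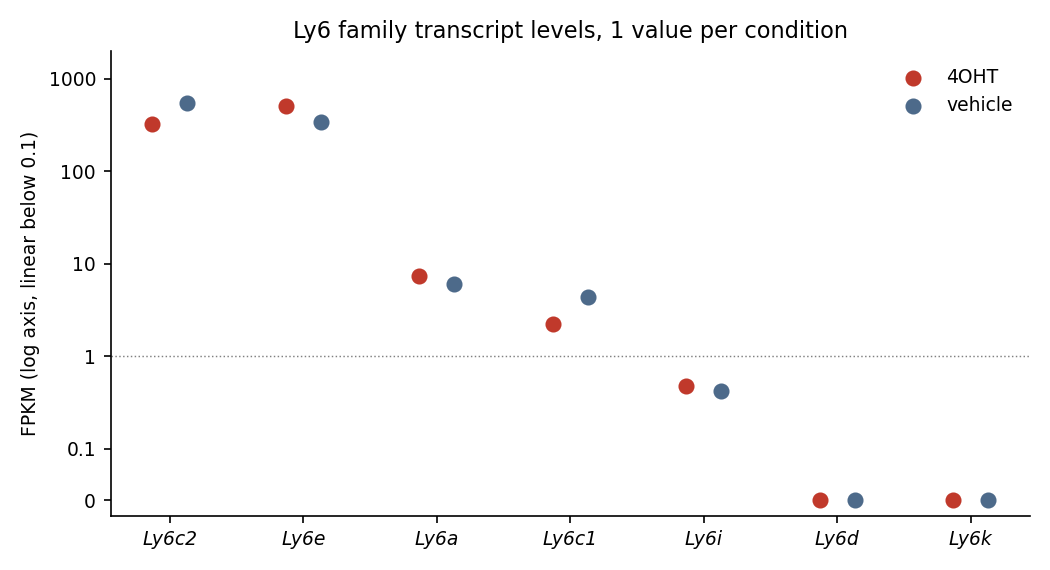
FPKM of each Ly6 member (log axis, linear below 0.1) after 4OHT (red) and in vehicle cells (blue), 1 value per condition, with a dotted line at 1 FPKM. Ly6e stood above Ly6c2 after 4OHT (505 and 323 FPKM) and below it in vehicle cells (341 and 551 FPKM), and Ly6d and Ly6k were listed at 0.

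Ly6c1, the close copy of Ly6c2, had 2.24 FPKM after 4OHT and 4.36 FPKM in vehicle cells. The ratio of 0.514 did not pass the test, with q = 0.102 and an unadjusted p of 0.00725 in the authors' deposited table. On the log2(FPKM + 1) scale, which understates the change of low genes, its log2 ratio was -0.72. Of 1573 other tested rows at a level within 1.5-fold of that of Ly6c1, 74 had a ratio at least as far from 1, and 67 of these were called. The level of Ly6c2 was 144 times that of Ly6c1 after 4OHT and 126 times in vehicle cells. Given the shared sequence, the part that reads of Ly6c2 may have in the Ly6c1 value was not tested. Both rows summed to 325 FPKM after 4OHT and 555 FPKM in vehicle cells, a ratio of 0.586.

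Ly6a, the gene of Sca-1, had 7.33 FPKM after 4OHT and 6.10 FPKM in vehicle cells. It did not pass the test, with a ratio of 1.20 and q = 1.00 in the authors' deposited table. The level of Ly6e was 68.9 times that of Ly6a after 4OHT and 55.9 times in vehicle cells. Ly6i, a near relative of Ly6a expressed in blood cells, had 0.479 FPKM after 4OHT and 0.424 FPKM in vehicle cells, a ratio of 1.13 with q = 1.00 in the authors' deposited table. It was below 1 FPKM in both conditions, the level from which a gene is counted as measured here. Of the 7 members 4 were measured, and their median log2 ratio on the log2(FPKM + 1) scale was -0.25, beside 0.00 over all 10989 measured rows. Of these 4 values 2 were above 0 and 2 below.

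Ly6d, a marker of B-lineage progenitors, and Ly6k, which is best known from male germ cells, were listed at 0 FPKM after 4OHT and in vehicle cells. Neither was tested, and no fold can be given. Of 9 further B cell markers, 8 were below 1 FPKM in both conditions, and the summed level of the list was 3.32 FPKM after 4OHT and 1.85 FPKM in vehicle cells. Ebf1, an early B cell transcription factor, was the measured one and rose, with 1.54 FPKM after 4OHT and 0.754 FPKM in vehicle cells (q = 0.0301 in the authors' deposited table). It was the 1 called of 4 tested markers of this list, where 2.8% of all tested rows were called higher. Keratinocyte markers, listed because Ly6d is also a keratinocyte antigen, summed to 0.00587 FPKM after 4OHT and 0.00405 FPKM in vehicle cells.

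**Figure D2:**
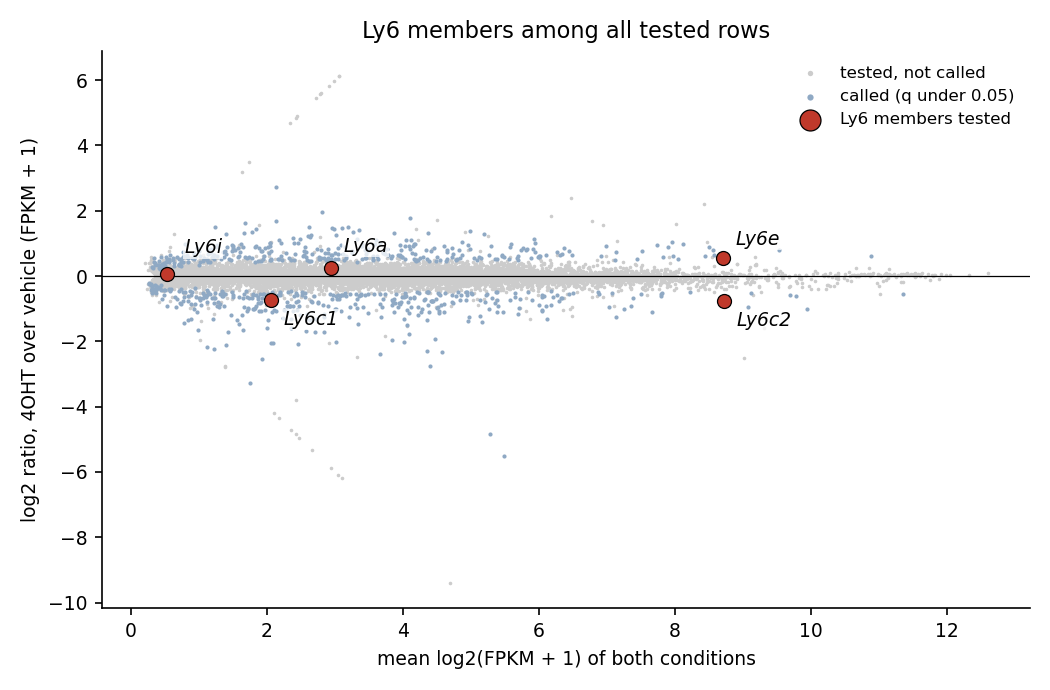
Log2 ratio of 4OHT over vehicle (FPKM + 1) against the mean log2(FPKM + 1) for all 11953 tested rows, grey where not called and blue where called, with the 5 tested Ly6 members in red. Ly6e at 0.57 and Ly6c2 at -0.77 lie at nearly the same mean level, and Ly6c1 at -0.72 lies on the lower side without being called.

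All 7 members lie on chromosome 15 of mm9 within 350 kb, from 74592486 to 74942379, in the order Ly6d, Ly6k, Ly6e, Ly6i, Ly6a, Ly6c1 and Ly6c2. In that order the values of Ly6e, Ly6i and Ly6a were higher after 4OHT and those of Ly6c1 and Ly6c2 lower, and of these 5 only Ly6e and Ly6c2 were called. Ly6e, which rose, and Ly6c2, which fell, are 148 kb apart, with Ly6i, Ly6a and Ly6c1 between them. No row of another gene stands between Ly6e and Ly6c2 in the table. Ly6c1 and Ly6c2, both with lower values after 4OHT, are 59.3 kb apart, and Ly6i and Ly6a, both with values slightly higher, 11.4 kb apart.

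Within 200 kb on either side of the members there were 17 rows of other genes, 8 of them at 0 in both conditions and 3 measured. None of the 3 tested passed, where 5.91% of all tested rows did, and 1 had an unadjusted p under 0.05. So few rows cannot be set apart from that share. Them6, a thioesterase family gene, had 17.0 FPKM after 4OHT and 22.4 FPKM in vehicle cells (q = 0.308 in the authors' deposited table). Jrk, a DNA-binding protein gene, had 2.07 FPKM after 4OHT and 2.32 FPKM in vehicle cells. Ly6f, a further Ly6 gene beyond Ly6c2, had 0.687 FPKM after 4OHT and 1.20 FPKM in vehicle cells (q = 0.567 in the authors' deposited table). The adrenal steroid genes Cyp11b1 and Cyp11b2, between Ly6k and Ly6e, were at 0 in both conditions. The highest levels in this stretch were those of Ly6e and Ly6c2.

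**Figure D3:**
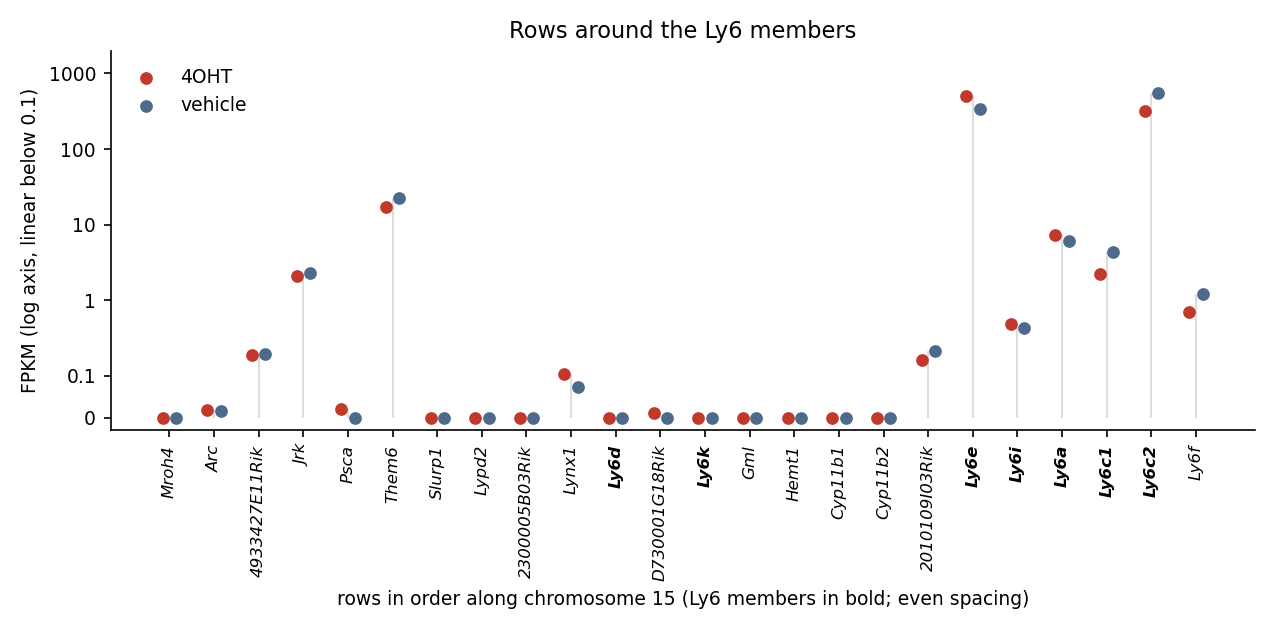
FPKM (log axis, linear below 0.1) of the 24 rows around the Ly6 members in their order along chromosome 15, evenly spaced, after 4OHT (red) and in vehicle cells (blue), members in bold. Ly6e and Ly6c2 exceed 300 FPKM in both conditions, no other row exceeds 22.4 FPKM, and the rows from Ly6d to Cyp11b2 are at or near 0.

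RefSeq promoter windows, from 250 bases before a gene's start to 50 after it, were at hand for 2 of the 7 members, Ly6c1 and Ly6c2, with 2 windows each. The pair of windows with the most shared bases is shown because both genes had lower values after 4OHT. Capitals mark the motif matches described next, and both windows are read on the minus strand of GRCm38.p6.
Ly6c1, chr15:75048788-75049087: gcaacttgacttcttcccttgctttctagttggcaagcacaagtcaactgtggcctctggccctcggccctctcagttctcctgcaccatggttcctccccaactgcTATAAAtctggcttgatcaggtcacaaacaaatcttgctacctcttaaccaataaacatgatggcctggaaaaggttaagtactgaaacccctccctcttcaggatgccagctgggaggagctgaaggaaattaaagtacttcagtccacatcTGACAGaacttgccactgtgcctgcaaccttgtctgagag
Ly6c2, chr15:75111922-75112221: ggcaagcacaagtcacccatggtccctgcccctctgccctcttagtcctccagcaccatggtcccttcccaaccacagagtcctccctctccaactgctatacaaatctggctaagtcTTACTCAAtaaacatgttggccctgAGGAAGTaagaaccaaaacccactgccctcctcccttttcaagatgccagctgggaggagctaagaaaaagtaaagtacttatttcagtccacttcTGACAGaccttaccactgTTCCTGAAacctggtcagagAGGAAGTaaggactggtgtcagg
Of 266 aligned bases in this pair 208 were identical, 78.2%. Motifs were searched on both strands. The C/EBP pattern TTNNGNAA had 2 matches in the Ly6c2 window and none in either Ly6c1 window, and 40.7% of all 32851 promoter windows hold one. The PU.1 pattern AGGAAGT had 2 matches in the Ly6c2 window and 1 in the other Ly6c1 window, which is not shown, and 9.35% of all windows hold it. The Meis pattern TGACAG occurred 1 time in each window shown and in 19.2% of all windows, and TATAAA occurred in the Ly6c1 window shown and in 13.6% of all. The interferon patterns GAS (TTCNNNGAA) and ISRE, held by 8.30% and 3.44% of all windows, and the Hox pattern TGATTNAT, held by 3.22%, had no match in the 4 windows. A match shows only that these letters are present.

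Genes that share the Ly6 fold or the GPI anchor were set beside the members. Of 32 matched rows of the wider family of Ly6 and urokinase receptor genes, 6 were measured and 17 were at 0 in both conditions. None of the 7 tested was called in either direction, where 5.91% of all tested rows were, and 3 had an unadjusted p under 0.05. With 7 rows tested, a count of 0 is near that share. The highest was Plaur, the urokinase receptor, with 16.2 FPKM after 4OHT and 22.9 FPKM in vehicle cells (q = 0.106 in the authors' deposited table). Lypd6b had 3.71 FPKM after 4OHT and 2.52 FPKM in vehicle cells, and Ly6g5b 3.56 FPKM after 4OHT and 2.99 FPKM in vehicle cells. The list's median log2 ratio was 0.11. Ly6g, the neutrophil antigen gene, matched no symbol and is not analysed here.

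No gene for building or attaching the GPI anchor was called, where 5.91% of all 11953 tested rows were. With 26 of these genes tested, a count of 0 is near that share. Of 28 listed genes 26 were measured and tested, 2 had an unadjusted p under 0.05, and the median log2 ratio was -0.02. Piga, which acts in the first step of anchor synthesis, had 16.3 FPKM after 4OHT and 22.5 FPKM in vehicle cells (q = 0.0894 in the authors' deposited table). Dpm3, a subunit of dolichol-phosphate mannose synthase, was the highest of the list, with 122 FPKM after 4OHT and 135 FPKM in vehicle cells. Of 8 tested genes for other GPI-anchored blood cell proteins, 1 rose and 1 fell, where 2.8% of all tested rows rose and 3.11% fell. Each of these counts rests on 1 gene. The median log2 ratio of the 7 measured was 0.05. Cd48, a SLAM family receptor, rose to 475 FPKM after 4OHT, against 301 FPKM in vehicle cells, and Cd14, a lipopolysaccharide co-receptor of monocytes, fell to 8.26 FPKM after 4OHT, against 16.9 FPKM in vehicle cells. Both had q = 0.00165 in the authors' deposited table. Thy1, a GPI-anchored antigen of stem and T cells, had 143 FPKM after 4OHT and 147 FPKM in vehicle cells.

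Since several Ly6 genes respond to interferons, 20 interferon response genes were listed beside them. Of the 14 tested, 1 was called, in the lower direction, where 5.91% of all tested rows were called in either direction. With 14 rows tested, a count of 1 is near that share. The called gene was below 1 FPKM, and none of the 13 measured genes was called. Among these 13, 2 had an unadjusted p under 0.05, and the median log2 ratio was 0.08. Irf9, a subunit of the interferon-activated complex ISGF3, had 9.57 FPKM after 4OHT and 6.48 FPKM in vehicle cells (q = 0.0611 in the authors' deposited table). Bst2, the GPI-anchored tetherin, had 100.5 FPKM after 4OHT and 99.1 FPKM in vehicle cells. Rsad2, below 1 FPKM, fell to 0.164 FPKM after 4OHT, against 0.417 FPKM in vehicle cells (q = 0.0466 in the authors' deposited table).

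Marker lists of the cell types that these cultures could hold were summed beside the members. Of 8 monocyte markers 4 of the 7 tested fell and none rose, where 3.11% of all tested rows fell. The 8 summed to 136 FPKM after 4OHT and 243 FPKM in vehicle cells, lower as for Ly6c2, with Ccr2 the largest part of both sums. F13a1, a coagulation factor subunit, had 7.17 FPKM after 4OHT and 53.6 FPKM in vehicle cells. Itgam, the integrin CD11b, had 14.5 FPKM after 4OHT and 33.1 FPKM in vehicle cells, and Irf8, a transcription factor of monocyte development, 14.7 FPKM after 4OHT and 21.7 FPKM in vehicle cells. Cd14, given above, was the other that fell. Ccr2, a chemokine receptor of Ly-6C-high monocytes, had 87.8 FPKM after 4OHT and 114 FPKM in vehicle cells and did not pass the test. Csf1r, at 2.55 FPKM after 4OHT and 2.84 FPKM in vehicle cells, did not pass either. The same held for Fcgr1, at 1.03 FPKM after 4OHT and 0.994 FPKM in vehicle cells. The late neutrophil list summed to 21.4 FPKM after 4OHT and 40.6 FPKM in vehicle cells. Cebpe, the largest part of both sums, had 13.6 FPKM after 4OHT and 17.1 FPKM in vehicle cells and was not called. Neither was Ngp, at 0.676 FPKM after 4OHT and 0.673 FPKM in vehicle cells. In the same list 3 of 5 tested genes were called lower, against 3.11% of all tested rows. They were S100a8, at 1.67 FPKM after 4OHT and 10.2 FPKM in vehicle cells, its partner S100a9, at 2.92 FPKM after 4OHT and 8.86 FPKM in vehicle cells, and the chemokine receptor Cxcr2, at 2.22 FPKM after 4OHT and 3.68 FPKM in vehicle cells. All 6 stem and progenitor markers rose, where 2.8% of all tested rows did. Their sums were 747 FPKM after 4OHT and 437 FPKM in vehicle cells, higher as for Ly6e, with Cd34 the largest part of both. The others were Kit, the stem cell factor receptor (32.8 FPKM after 4OHT and 20.1 FPKM in vehicle cells), and Procr, a stem cell surface marker (2.25 FPKM after 4OHT and 0.741 FPKM in vehicle cells). The transcription factors Erg, Gata2 and Hlf, also of this list, had ratios of 1.77, 1.67 and 1.44. Sca-1, itself a stem cell antigen, is encoded by Ly6a, which did not pass the test. The part of these cell types in the Ly6 values was not tested.

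General blood cell markers, which fit the labelled cell type, were present in both conditions. Ptprc, the gene of CD45, had 41.2 FPKM after 4OHT and 42.7 FPKM in vehicle cells. The T and NK cell markers summed to 0.0571 FPKM after 4OHT and 0.0719 FPKM in vehicle cells, and the endothelial and stromal markers to 0.00781 FPKM after 4OHT and 0.0281 FPKM in vehicle cells. Of the 4 plasmacytoid dendritic cell markers only 2 were tested and neither was called, where 5.91% of all tested rows were. With 2 rows tested, a count of 0 is near that share. Cebpa, the targeted gene, fell to 42.8 FPKM after 4OHT, against 109 FPKM in vehicle cells, which left 39.2% (q = 0.00165 in the authors' deposited table).

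**Figure D4:**
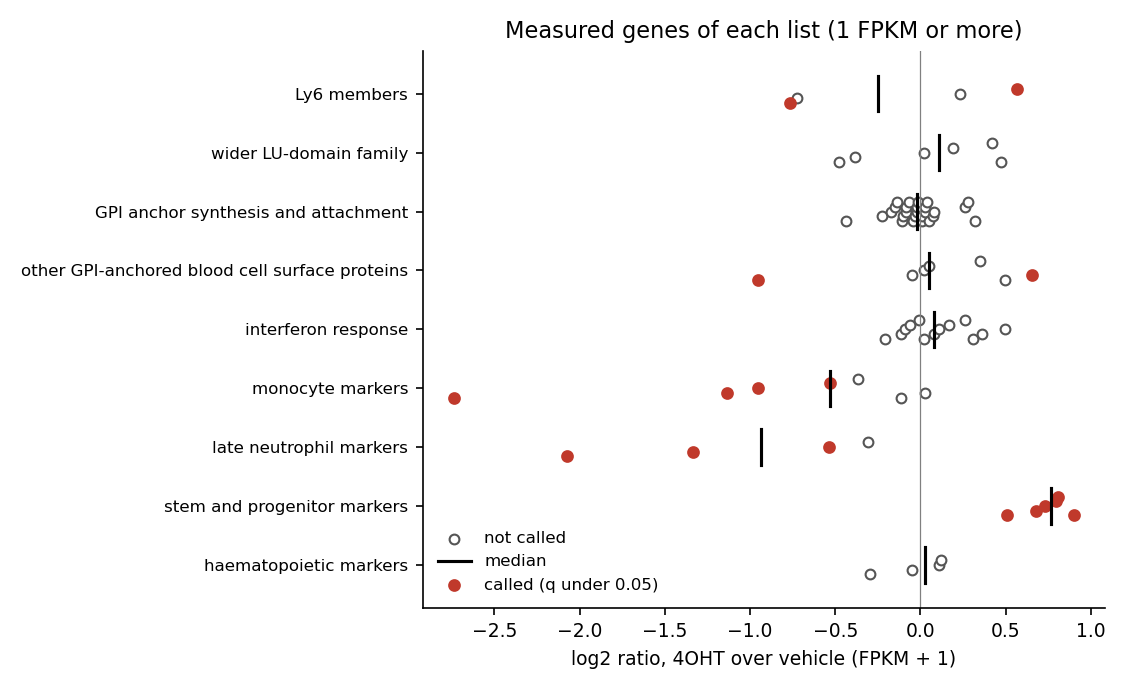
Log2 ratio of 4OHT over vehicle (FPKM + 1) for the measured genes of each list, filled where called, with the list's median as a bar. The Ly6 members lie on both sides of 0, the 26 GPI anchor genes cluster around a median of -0.02, and the monocyte and the stem and progenitor lists lie mainly on opposite sides.

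The rows nearest to the 2 called members were found by the Euclidean distance of log2(FPKM + 1) over the 2 conditions, a likeness that rests on 2 values per gene. Only tested rows were searched, without rows of several symbols and without symbols typical of predicted genes, clones or small RNAs. Nearest to Ly6e were Cd48, at a distance of 0.20, the serine incorporator gene Serinc3 at 0.26, and Cd34 at 0.27. Cd48 and Cd34 were called and Serinc3 was not (q = 0.488 in the authors' deposited table). Cd34, a sialomucin of stem and progenitor cells, had 493 FPKM after 4OHT and 284 FPKM in vehicle cells. Nearest to Ly6c2 were Bsg at 0.32, Ssr2 at 0.34 and Gapdh at 0.35, none of which was called. Bsg, the gene of the surface protein basigin, had 364 FPKM after 4OHT and 457 FPKM in vehicle cells, a smaller difference than that of Ly6c2.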

How the data were processed

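RNA was sequenced from cells under 4OHT and under vehicle, with 1 deposited sample each. Cuffdiff 2.0.2, Bowtie2 2.0.0.7, CASAVA 1.8.2 and the mm9 build appear in the submitters' processing notes, without a role for each. No source used here gives the gene annotation or the strand setting, so a gene and an antisense partner cannot be told apart. The authors deposited FPKM values per gene and condition, per the file headers, together with the p-value and q-value of the authors' own test. Which test lies behind these q-values is not known. From these values, ratios and log2((4OHT FPKM + 1)/(vehicle FPKM + 1)) were computed in Python 3.11.15 with pandas 2.3.3, and no test was run, since there was 1 value per condition. A row was called measured when either condition reached 1 FPKM. The arithmetic of the adjustment and of the calling rule was checked on simulated data with p-values set by hand. That check says nothing about the deposited q-values.

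The members and the gene lists were chosen with earlier results of these data known, so neither is independent evidence. Named genes were the members, called genes of each list or otherwise up to 3 of its highest, called rows of the locus, the 3 nearest rows of each called member, and Cebpa. Genes named beyond this rule (Irf9, Bst2, Them6, Jrk, Ly6f, Piga, Ccr2, Csf1r, Fcgr1, Cebpe, Ngp, Thy1, Cyp11b1 and Cyp11b2) were chosen after their values were seen. Of the listed symbols, 4 were matched through an older symbol. Coordinates are those of the files on mm9, with starts counted from 1. Coding sequences are from GENCODE and promoters from RefSeq, both on GRCm38, and no coordinate was carried between builds. Coding sequences were aligned globally, with a nucleotide scoring of 2 for a match and -1 for a mismatch, and no protein sequence was compared, since no protein table was used here. The alternatives were a q threshold of 0.01, adjustment over measured rows only, a pseudocount of 0.1 or none, and 2 scalings.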

Additional observations from a re-analysis of the deposited data

How the results depend on the processing

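No paired analysis was possible because each condition has 1 deposited value. At a q threshold of 0.01 the count of members called higher went to 0, since Ly6e no longer passed, and Ly6c2 stayed as the 1 called lower. With p-values adjusted over the measured rows alone 1 member was called in each direction, as before. A pseudocount cannot change the sign of a log2 ratio, so the settings with another pseudocount could not reverse any member. The 2 scalings shifted ratios by less than the log2 ratio of any of the 5 members above 0 FPKM. They too could not reverse a sign. The members' median log2 ratio was 0.054 when Ly6i, below 1 FPKM, was added, against -0.25 without it, so the sign of the median depends on 1 low gene. No wider-family or GPI anchor gene was called under any of these settings. Setting the median ratio of all rows to 1, and equal column sums, shifted ratios by 0.00 and 0.02 on the log2 scale, and the effect of both scalings on the members' median was added after seeing the data. Without replicates or read counts, neither replicate spread nor counting error can be given.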
